A study of Mus musculus with 12 samples.

Results

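Matrix metalloproteinases (Mmp genes), their tissue inhibitors (Timp genes) and the Adamts proteases were taken as a set by gene symbol alone. The set holds every symbol that starts with Mmp or Adamts followed by a digit, and Timp1 to Timp4. That gave 46 of the 24422 features in the count tables, made up of 23 Mmp, 4 Timp and 19 Adamts genes. Of these, 39 passed the filter on low counts (17 Mmp, 4 Timp and 18 Adamts genes) among 16713 genes tested in all. The other 7 were Mmp1a, Mmp1b, Mmp8, Mmp10, Mmp20, Mmp21 and Adamts13. Mmp21 had 0 counts in all 12 libraries, and Mmp10 had the highest count of the 7 in any library, 18.

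RNA was sequenced from stromal cells of mouse adipose tissue in 12 libraries, 3 in each of 4 groups. SD mCherry (replicates 1, 2 and 3) had the genotype p21+/mcherry and a Standard Diet (SD). HFD mCherry (replicates 15, 17 and 20) was also p21+/mcherry, with a High Fat Diet (HFD). HFD Tert (replicates 25, 26 and 27) was p21+/mcherry-Tert on HFD, with Tert, the catalytic subunit of telomerase, expressed from the p21 promoter. HFD TertCi (replicates 30, 31 and 33) was p21+/mcherry-TertCi on HFD, TertCi being a catalytically inactive Tert. Every group thus carried an mCherry cassette at an allele of p21 (Cdkn1a), a cell cycle inhibitor gene, so no group was wild type, and no knock-in group was on the standard diet. The series' design text gives the HFD control as p21+/- without mCherry; the sample labels were followed. Age, sex and fat depot are not in the labels. Nothing in the labels says that replicates were separate animals, so p-values measure the spread between these samples only.

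Total counts per library ran from 16430330 to 19486965, and 3 counts corresponded to 0.145 to 0.193 CPM (counts scaled by the size of the library). Counts for Tert were 8 to 78 in the SD mCherry libraries, 17 to 30 in HFD mCherry, 131 to 282 in HFD Tert and 187 to 304 in HFD TertCi. Markers of stromal progenitors were detected in every group, and Adipoq, a marker of mature adipocytes, stayed at or under 7.85 CPM. The summed level of 8 adipocyte markers, Adipoq among them, ran from 109 to 229 CPM over the libraries. The summed level of 10 epididymis and epithelium markers varied from 7.05 to 57177 CPM between libraries, within groups as well as between them. The stromal cells were of mixed types, so a lower value can mean fewer cells of a type or less RNA per cell. These readings cannot be told apart.

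Matrix metalloproteinases are zinc enzymes that cut collagens, basement membrane and other matrix proteins. Most are secreted as inactive precursors, and some are held at the cell membrane. Timp proteins bind to the active enzymes and block them, while Adamts enzymes carry thrombospondin motifs and include proteases for proteoglycans and for the propeptides of collagens. In adipose tissue these enzymes are known for reshaping the matrix around adipocytes as fat depots grow.

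Compared per length of exon, Timp2 had the highest mean of the 46 members in every group. In SD mCherry it had 258 ± 74.2 CPM per kb (SD, n = 3), ahead of Mmp7 at 112 ± 80.8 and Adamts1 at 104 ± 46.0. In HFD mCherry, Timp2 stood at 625 ± 341 CPM per kb, followed by Timp1 at 406 ± 239, Adamts4 at 300 ± 157 and Mmp2 at 206 ± 124. The intervals of mean ± SD of these 4 overlapped in HFD mCherry. The 4 Timp genes together held 41.9% to 52.6% of the summed CPM per kb of the 46 genes over the 12 libraries, and the Mmp genes 18% to 33.1%. The Mmp share was 25.5% to 33.1% in SD mCherry and 26.3% to 28.8% in HFD mCherry, against 18% to 21% in HFD Tert and 18.9% to 23.2% in HFD TertCi. With Mmp7 left out of the sums, a choice made after the values were seen, that share was 14.7% to 25% in SD mCherry, 25.5% to 28.4% in HFD mCherry, 18% to 21% in HFD Tert and 18.4% to 22.7% in HFD TertCi. The SD mCherry range then overlapped both knock-in ranges, and HFD mCherry lay above the other 3 groups.

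**Figure D1:**
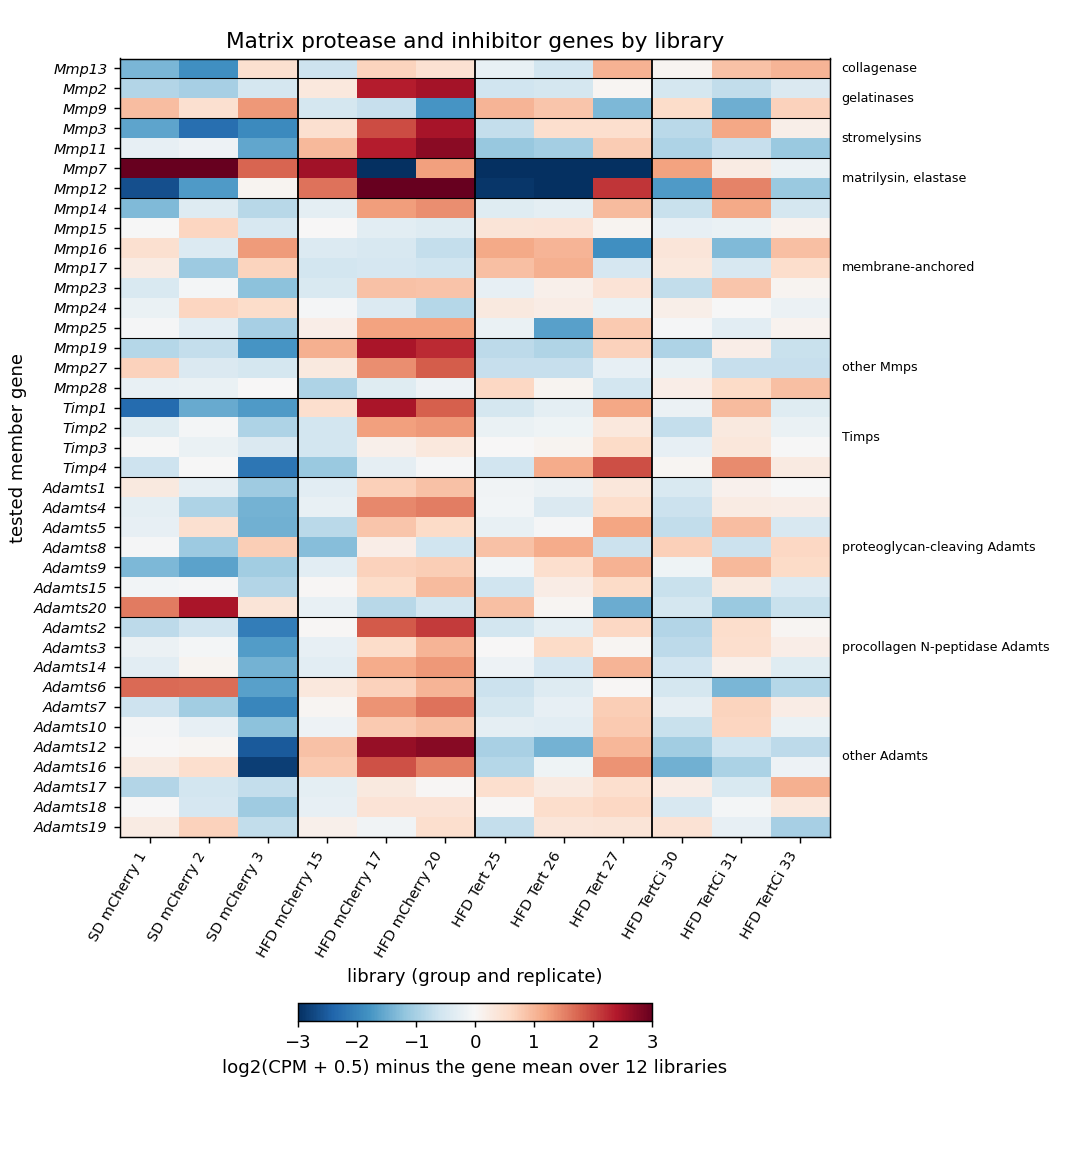
Level of the 39 tested genes in each of the 12 libraries, as log2(CPM + 0.5) minus the mean of that gene over the libraries (colour, limited to 3 in either direction), with genes in rows by role and libraries in columns by group. HFD mCherry replicates 17 and 20 stand out by their high values for Mmp2, Mmp11, Mmp19, Mmp12, Timp1 and Adamts12, and HFD mCherry replicate 15 is paler in the same rows.

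The diet comparison set HFD mCherry against SD mCherry. Mmp3, Timp1, Mmp19, Mmp11, Mmp2, Adamts2 and Adamts7 had higher levels in all 3 HFD mCherry libraries than in any SD mCherry library, with log2 fold changes from 2.45 to 3.86. Mmp12 had the widest difference, a log2 fold change of 4.75 ± 1.70 (SE), and Mmp9 and Adamts20 differed in the other direction. None of this passed the threshold: edgeR's quasi-likelihood test called 0 of the 39 genes at an adjusted p under 0.05, beside 0.0479% of all genes tested. The smallest adjusted p in the set was 0.0652, shared by Mmp2, Mmp3 and Timp1. At an unadjusted p under 0.05, edgeR gave 17 members higher and 3 lower, 51.3% of the set beside 24.1% of all genes (14.1% higher). DESeq2, an alternative count test, called 14 (12 higher and 2 lower), 35.9% of the set beside 12.4% of all genes (7.92% higher). Libraries of the diet groups did not overlap for 19 members (16 higher and 3 lower), beside 25.5% of all genes (13.9% higher). The median log2 fold change was 1.12 over the 39 genes and -0.08 over all genes tested, and 29 of the 39 were above 0.

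The knock-in comparison set the mean of HFD Tert and HFD TertCi against HFD mCherry. Mmp2, gelatinase A, fell in the knock-in groups, with a log2 fold change of -2.45 ± 0.371 (edgeR adjusted p = 0.0443), and it was the only member called by that test, beside 0.168% of all genes. The call was lost in 11 of 19 alternatives, among them limma-voom (adjusted p = 0.0751), the edgeR fit of only the groups compared (adjusted p = 0.0512) and edgeR without HFD mCherry replicate 20 (adjusted p = 0.223). Mmp11 and Mmp19 came next at -2.81 ± 0.513 and -2.30 ± 0.433, each with an edgeR adjusted p of 0.0546. At an unadjusted p under 0.05, 14 members were lower and 1 higher in edgeR, 38.5% of the set beside 21% of all genes (13.4% lower). DESeq2 called 7 members, all lower, 17.9% of the set beside 9.23% of all genes (5.77% lower): Mmp2, Mmp3, Mmp11, Mmp19, Timp1, Adamts2 and Adamts12. All 6 knock-in libraries lay below all 3 HFD mCherry libraries for Mmp2, Mmp11, Mmp19, Mmp27 and Adamts6, and above them for Mmp17, so 6 members did not overlap, 15.4% of the set beside 13.0% of all genes (7.03% lower). The median log2 fold change was -0.54 over the set and -0.05 over all genes. Both comparisons contain the HFD mCherry libraries, so a high value there adds to the diet difference and to the knock-in difference alike.

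**Figure D2:**
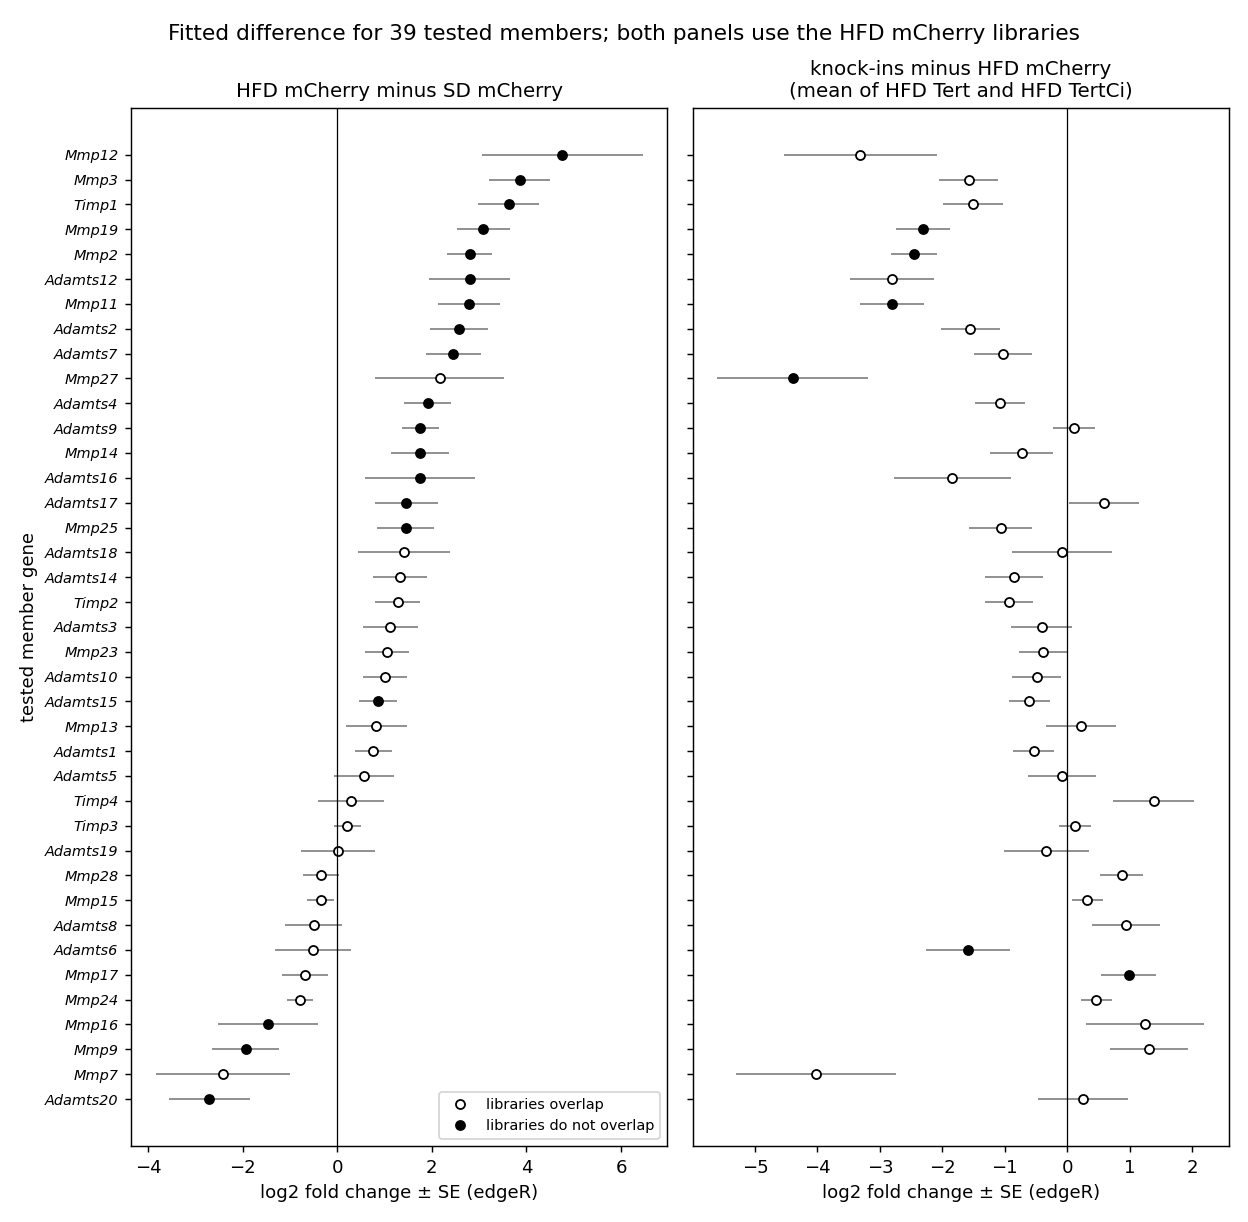
Log2 fold change with its SE for the 39 tested members, in the diet comparison and in the comparison of both knock-ins with HFD mCherry. Values for Mmp2, Mmp3, Mmp11, Mmp12, Mmp19, Timp1, Adamts2 and Adamts12 lie to the right of 0 for diet and to the left for the knock-ins, whereas Adamts9 lies at 1.76 for diet and at 0.11 for the knock-ins. Filled points mark members whose libraries do not overlap between groups; both panels use the HFD mCherry libraries.

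Each knock-in genotype was also compared with HFD mCherry on its own. In HFD Tert against HFD mCherry, edgeR called 0 of 39 members (beside 0% of all genes), 11 had an unadjusted p under 0.05 (2 higher and 9 lower, beside 16.4% of all genes and 9.75% lower), and 7 did not overlap (beside 21.1%). In HFD TertCi against HFD mCherry, edgeR called 0 of 39 (beside 0.0120%), 11 had an unadjusted p under 0.05 (1 higher and 10 lower, beside 14.7% of all genes and 8.92% lower), and 12 did not overlap (beside 21.5%). DESeq2 called 5 members in the first, all lower (beside 5.07% and 3.17% lower), and 4 in the second, all lower (beside 4.09% and 2.79% lower). Mmp2, Mmp11, Mmp19 and Adamts12 were among them in each. As shares of the set, the unadjusted counts were 28.2% in each comparison, the DESeq2 counts 12.8% and 10.3%, and the counts without overlap 17.9% for HFD Tert, under the 21.1% of all genes, and 30.8% for HFD TertCi, over the 21.5%. In an edgeR F-test across all 4 groups, 0 members were called (beside 0.0120%), with 15 at an unadjusted p under 0.05 (38.5%, beside 20.2%), and DESeq2 called 13 (33.3%, beside 13.8%).

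Among the gelatinases, which cut denatured and basement membrane collagen, Mmp2 and Mmp9 differed in pattern. Mmp2 stood at 93.7, 86.1 and 120 CPM in SD mCherry, 216, 891 and 975 in HFD mCherry, 114, 120 and 179 in HFD Tert, and 119, 103 and 129 in HFD TertCi. Every HFD mCherry library exceeded the other 9, while the knock-in and SD mCherry ranges overlapped. Its group means were 99.8 ± 17.6, 694 ± 416, 138 ± 35.8 and 117 ± 12.9 CPM (SD, n = 3 each). The diet log2 fold change of Mmp2 was 2.80 ± 0.476 (edgeR adjusted p = 0.0652). Mmp9, gelatinase B, stood at 20.9, 15.2 and 27.5 CPM in SD mCherry and at 7.35, 6.49 and 2.81 in HFD mCherry. The knock-in libraries split for Mmp9: HFD Tert replicate 27 (3.94 CPM) and HFD TertCi replicate 31 (3.61) lay in the HFD mCherry range, and the other 4 lay between 16 and 22.3. Its diet log2 fold change was -1.93 ± 0.707 (edgeR adjusted p = 0.146). HFD Tert replicate 27 and HFD TertCi replicate 31 also had the lowest epididymis and epithelium sums of their groups, 7.05 and 205 CPM against 10368 to 33405 in the other 4 knock-in libraries; the part of those markers in the Mmp9 values was not tested. SD mCherry replicate 2 had a sum of 999 CPM with Mmp9 at 15.2, and HFD mCherry replicate 15 had 19061 CPM with Mmp9 at 7.35.

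**Figure D3:**
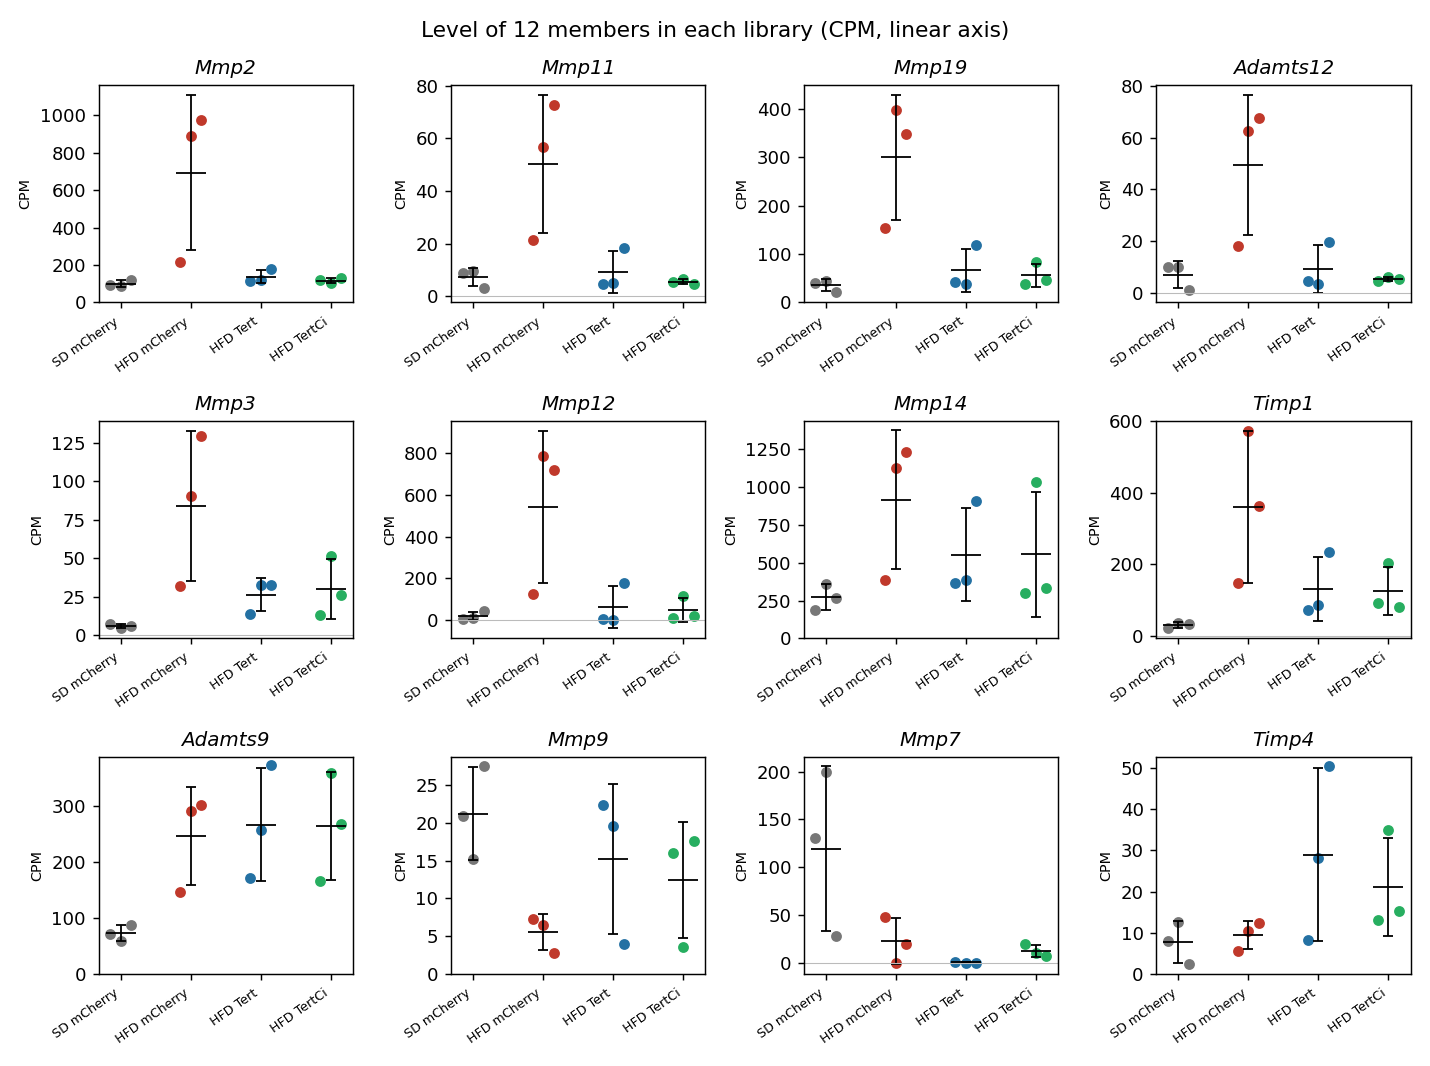
CPM of 12 members in each library (points) by group, with the mean (bar) and SD (error bar) of 3 libraries; each panel has its own axis. For Mmp2, the 3 HFD mCherry points lie above all others, at 216, 891 and 975 CPM, and HFD mCherry replicate 15 is the lowest of its group.

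Among the stromelysins, Mmp3 cuts proteoglycans and fibronectin and can activate other Mmp precursors, while Mmp11 (stromelysin 3) is typical of fibroblasts. Mmp3 (stromelysin 1) stood at 7.28, 4.36 and 5.73 CPM in SD mCherry, 32.2, 90.8 and 129 in HFD mCherry, 13.7, 32.6 and 32.8 in HFD Tert, and 12.8, 51.4 and 25.8 in HFD TertCi. All 9 HFD libraries were above all SD mCherry libraries, and the knock-in libraries overlapped HFD mCherry. The diet log2 fold change of Mmp3 was 3.86 ± 0.645 (edgeR adjusted p = 0.0652) and its knock-in value -1.58 ± 0.478 (edgeR adjusted p = 0.113). Mmp11 had 8.96, 9.55 and 3.30 CPM in SD mCherry, 21.3, 56.6 and 72.7 in HFD mCherry, 4.55, 5.02 and 18.5 in HFD Tert, and 5.41, 6.44 and 4.61 in HFD TertCi. Here 5 of the 6 knock-in libraries were within the SD mCherry range of 3.30 to 9.55, and HFD Tert replicate 27 was above it.

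Mmp12 encodes macrophage elastase. It stood at 5.96, 11.9 and 42.4 CPM in SD mCherry, 124, 785 and 717 in HFD mCherry, 4.84, 2.62 and 178 in HFD Tert, and 12, 114 and 18.3 in HFD TertCi. HFD Tert replicate 27 exceeded HFD mCherry replicate 15, so the groups overlapped, and without HFD Tert replicate 27 the knock-in log2 fold change moved from -3.32 (edgeR adjusted p = 0.169) to -5.34 (edgeR adjusted p = 0.0316). Summed macrophage markers (10 of 10 listed genes detected, none at 0) ran from 1117 to 1240 CPM in SD mCherry, 2405 to 6018 in HFD mCherry, 925 to 2472 in HFD Tert and 1169 to 1738 in HFD TertCi. The highest sums of the knock-in groups were those of HFD Tert replicate 27 and HFD TertCi replicate 31, the libraries with the highest Mmp12 there. The part of macrophage number in the Mmp12 values was not tested.

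Mmp7, matrilysin, is a small enzyme made chiefly by epithelia. It stood at 130, 199 and 27.9 CPM in SD mCherry, 47.8, 0 and 19.2 in HFD mCherry, 0.47, 0 and 0 in HFD Tert, and 19.0, 9.53 and 6.97 in HFD TertCi. In counts, the HFD Tert libraries had 8, 0 and 0 and the HFD TertCi libraries 372, 148 and 139, a separation found for no other member between these genotypes. Summed mesothelial markers were 2429, 4502 and 1432 CPM in the SD mCherry libraries and at most 1357 CPM in HFD mCherry. They were 2133, 2629 and 907 CPM in the HFD Tert libraries and 1710, 1293 and 1260 in HFD TertCi. Replicates 25 and 26 of HFD Tert thus exceeded every HFD TertCi library in this sum. Summed epididymis and epithelium markers were 20966, 10368 and 7.05 CPM in HFD Tert and 33405, 205 and 27424 in HFD TertCi. The part of either marker set in the Mmp7 values was not tested. Exons of other genes overlap 11.5% of the Mmp7 exon length, and the counting was not stated to use strand, which makes its level uncertain.

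Mmp3, Mmp7 and Mmp12 belong to a cluster of 10 Mmp genes within 427.1 kb on mouse chromosome 9 (GRCm38, positions 7272514 to 7699585), with 5 tested: Mmp13, Mmp12, Mmp3, Mmp27 and Mmp7. The group means of these 5 did not all follow the same order, though edgeR called none of them in any comparison. Means of Mmp12, Mmp3 and Mmp27 were highest in HFD mCherry, and that of Mmp7 in SD mCherry. Mmp13, collagenase 3, overlapped in all groups. It ran from 6.16 to 32.8 CPM in SD mCherry and 15.1 to 37.3 in HFD mCherry. In HFD Tert it ran from 15.9 to 48.6, and in HFD TertCi from 24.8 to 47.9. Counts of Mmp27 were 16, 2 and 1 in SD mCherry, 9, 27 and 39 in HFD mCherry, 0, 0 and 3 in HFD Tert, and 4, 0 and 0 in HFD TertCi; no fold is given for it.

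**Figure D4:**
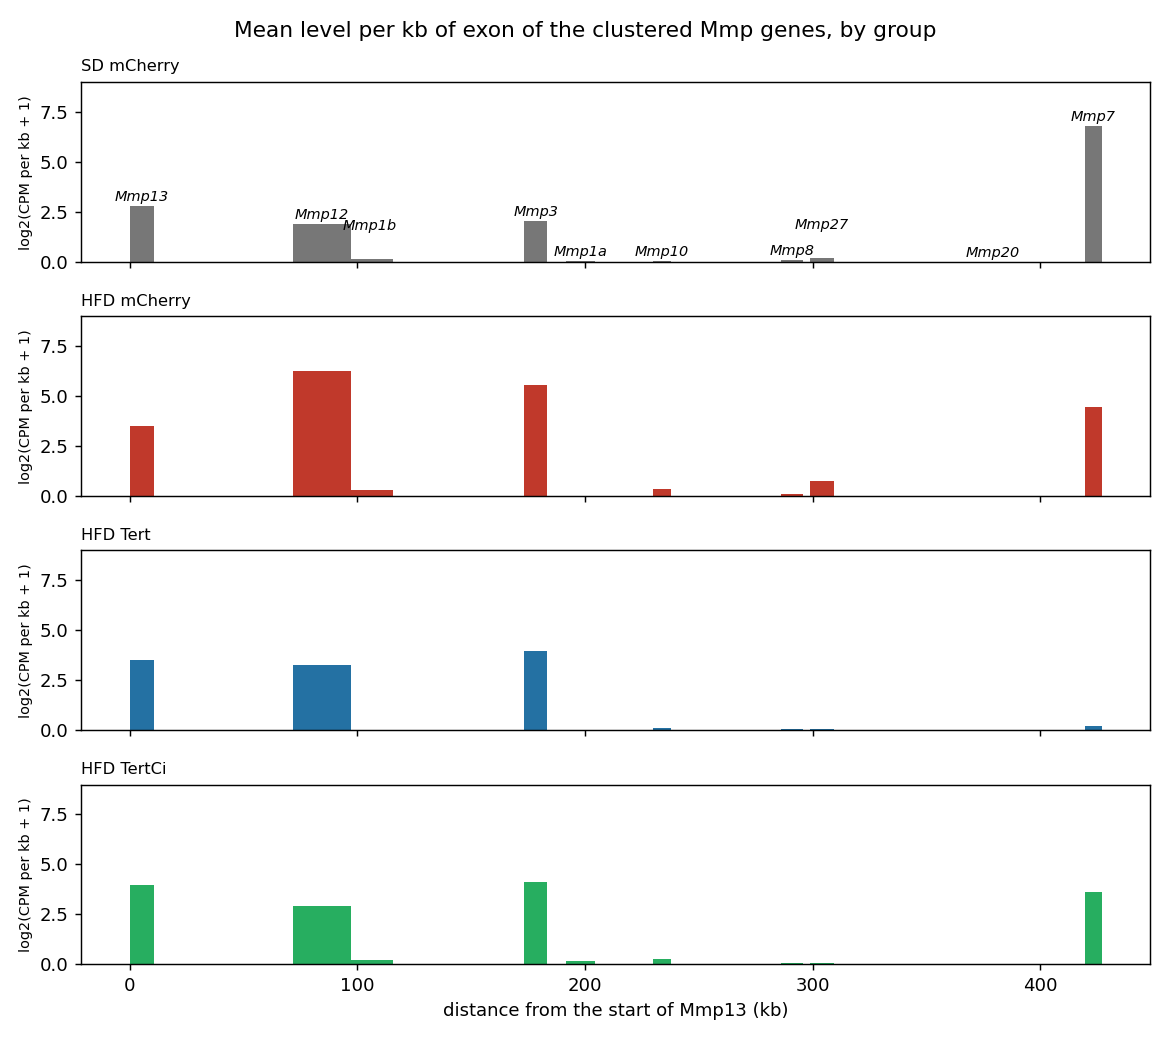
Mean level of the 10 clustered Mmp genes, as log2(CPM per kb of exon + 1), against distance in kb from the start of Mmp13, with 1 panel per group. Bar width is gene length. The bars of Mmp12 and Mmp3 are tallest in HFD mCherry, and the bar of Mmp7 is tallest in SD mCherry. The bar of Mmp13 is shortest in SD mCherry (5.96 CPM per kb) and tallest in HFD TertCi (14.5).

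The promoters of these neighbours are shown because genes whose means were highest in different groups held the same short motif. RefSeq promoter windows of GRCm38.p6, 250 bases before to 50 after the start, were matched for 32 of the 46 members (35 windows). The AP-1 motif TGAGTCA, searched on both strands, was present in 7 of the 35 member windows (20%), against 5.2% of all 32851 windows. All 7 (Mmp1a, Mmp1b, Mmp3, Mmp7, Mmp10, Mmp12 and Mmp13) lie in the chromosome 9 cluster. The CRE motif TGACGTCA was in 0 of the 35 windows (1.79% of all), and TATAAA in 11 (31.4%, against 13.6% of all). Matches of different motifs overlapped in 0 member windows. The stretches around the AP-1 match, in capitals, are printed 5′ to 3′ on the plus strand; for Mmp13 the capitals are its reverse complement. They cover chr9:7445746-7445812 for Mmp3, chr9:7347300-7347366 for Mmp12, chr9:7272449-7272513 for Mmp13 and chr9:7691997-7692063 for Mmp7.
Mmp3: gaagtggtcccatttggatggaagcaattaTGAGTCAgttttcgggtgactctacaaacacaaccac
Mmp12: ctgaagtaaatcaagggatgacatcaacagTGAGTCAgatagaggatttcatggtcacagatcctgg
Mmp13: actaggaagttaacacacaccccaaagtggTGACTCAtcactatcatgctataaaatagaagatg
Mmp7: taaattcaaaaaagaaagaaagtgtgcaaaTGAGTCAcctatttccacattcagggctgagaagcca
RefSeq gives Mmp12 a start at 7344397, whose window held no match, and a start at 7347374, inside the gene, whose window holds the match shown. For Mmp7, the match belongs to the start at 7692090, and the window of the other start, 7692341, held none. The match ran from -46 to -40 relative to these starts for Mmp3, -44 to -38 for Mmp12, -35 to -29 for Mmp13 and -63 to -57 for Mmp7. The motif thus lay shortly before a start in all 7 genes. Means of Mmp3, Mmp12, Mmp10 and Mmp1b were highest in HFD mCherry, and those of Mmp13, Mmp7 and Mmp1a were not. Mmp1a, Mmp1b and Mmp10 did not pass the filter on low counts. The part of the motif in these values was not tested. A match describes letters in the window and is no measure of binding.

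Membrane-anchored Mmps act at the cell surface, and Mmp14 (MT1-MMP) activates the Mmp2 precursor with Timp2 as adaptor. Mmp14 stood at 188, 360 and 266 CPM in SD mCherry, 388, 1127 and 1236 in HFD mCherry, 366, 384 and 908 in HFD Tert, and 298, 1035 and 331 in HFD TertCi. All HFD mCherry libraries exceeded SD mCherry (log2 fold change 1.76 ± 0.610, edgeR adjusted p = 0.133), and the knock-in libraries overlapped HFD mCherry (-0.73 ± 0.501, edgeR adjusted p = 0.427). Within each library, the CPM of Mmp14 divided by that of Mmp2 was 2.005 to 4.19 in SD mCherry, 1.26 to 1.80 in HFD mCherry, 3.20 to 5.08 in HFD Tert and 2.51 to 10.04 in HFD TertCi. The HFD mCherry ratios lay below those of the other 9 libraries; this ratio is not corrected for length and was not tested.

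**Figure D5:**
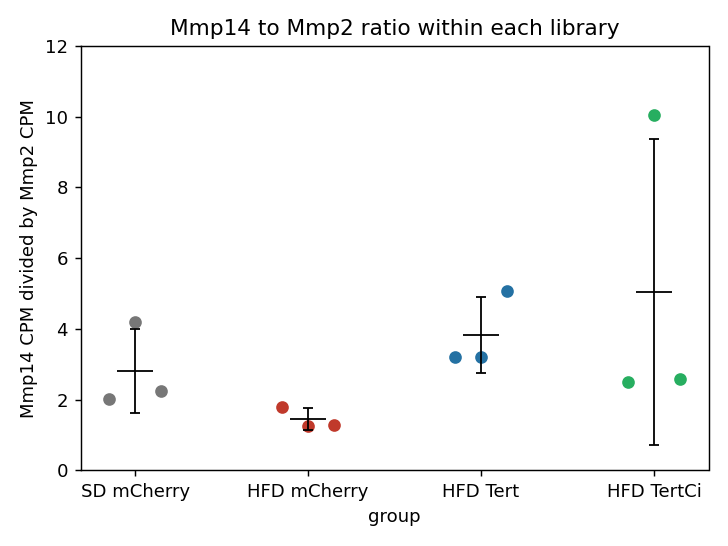
Mmp14 CPM divided by Mmp2 CPM in each library (points), with the mean (bar) and SD (error bar) of 3 libraries per group. HFD mCherry runs from 1.26 to 1.80, below all other libraries, and the highest point, 10.04, is HFD TertCi replicate 31.

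The other 6 membrane-anchored members went different ways. Mmp17 stood at 12, 12.4 and 11.5 CPM in HFD mCherry, 33.4, 37.4 and 12.4 in HFD Tert, and 22.1, 12.6 and 25.9 in HFD TertCi, so that all 6 knock-in libraries were higher, some by a small margin (log2 fold change 0.98 ± 0.446, edgeR adjusted p = 0.238). Mmp25 and Mmp23 had diet log2 fold changes of 1.44 and 1.06, whereas those of Mmp15, Mmp16 and Mmp24 were -0.35, -1.47 and -0.79; edgeR called none of the 5. HFD mCherry libraries lay above SD mCherry for Mmp25, below it for Mmp16, and overlapped it for Mmp15, Mmp23 and Mmp24.

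Mmp19 cuts basement membrane proteins and is made by macrophages and stromal cells. It stood at 40.4, 44.4 and 21.1 CPM in SD mCherry, 153, 398 and 348 in HFD mCherry, 42.1, 38.7 and 118 in HFD Tert, and 38.1, 83.5 and 45.7 in HFD TertCi. Every HFD mCherry library exceeded the other 9, as for Mmp2, with a diet log2 fold change of 3.08 ± 0.563 (edgeR adjusted p = 0.0659). Exons of other genes overlap 28.3% of the Mmp19 exon length, so its level is uncertain without strand. The same holds to a lesser extent for Mmp24 (13.6% overlapped), Mmp28 and Adamts9 (12% each), Adamts8 (10.6%) and Mmp11 (5.58%), while no exon of another gene overlaps Mmp2, Mmp3, Mmp9, Mmp14, Timp1 or Timp2. Mmp28 (epilysin) stood at 2.87 to 5.26 CPM in HFD mCherry and 6.89 to 11.5 in HFD TertCi (log2 fold change 1.12 ± 0.385, edgeR adjusted p = 0.249).

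The inhibitors fell into different patterns. Timp1, an inhibitor that blocks most secreted Mmps, stood at 20.5, 35.8 and 31.6 CPM in SD mCherry, 147, 572 and 362 in HFD mCherry, 71.4, 85.2 and 233 in HFD Tert, and 91.5, 202 and 80.6 in HFD TertCi. All 9 HFD libraries exceeded the SD mCherry libraries. Its diet log2 fold change was 3.62 ± 0.640 (edgeR adjusted p = 0.0652), and its knock-in value -1.50 ± 0.481 (edgeR adjusted p = 0.130). Timp2 stood at 1043, 1272 and 698 CPM in SD mCherry and 904, 3117 and 3280 in HFD mCherry, where replicate 15 lay inside the SD mCherry range (1.28 ± 0.469, edgeR adjusted p = 0.148). Timp3, which is bound to the matrix, had a mean of 784 ± 114 CPM on the standard diet and 911 ± 262 in HFD mCherry, with 1061 ± 236 in HFD Tert and 932 ± 194 in HFD TertCi (SD, n = 3 each), differences within the spread between replicates. Exons of other genes overlap 21.3% of its exon length. Timp4 went from 5.63, 10.5 and 12.3 CPM in HFD mCherry to 8.35, 28.1 and 50.3 in HFD Tert and 13.2, 34.8 and 15.3 in HFD TertCi. Its knock-in log2 fold change was 1.38 ± 0.644 (edgeR adjusted p = 0.249), the highest among the 39 members.

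Among the proteoglycan-cleaving Adamts genes, Adamts9 was high in all HFD groups. It stood at 71.2, 59.1 and 88.1 CPM in SD mCherry, 146, 291 and 301 in HFD mCherry, 171, 256 and 373 in HFD Tert, and 167, 358 and 269 in HFD TertCi. All 9 HFD libraries exceeded SD mCherry, and the 3 HFD groups overlapped. The diet log2 fold change was 1.76 ± 0.392 (edgeR adjusted p = 0.0691), and the knock-in value was 0.11 ± 0.331 (edgeR adjusted p = 0.878). Summed endothelial markers (8 of 8 detected, none at 0) ran from 788 to 1161 CPM in SD mCherry, 1697 to 3086 in HFD mCherry, 1926 to 5030 in HFD Tert and 2311 to 5019 in HFD TertCi, with all 9 HFD libraries above SD mCherry; their part in the Adamts9 values was not tested. Adamts4, an aggrecanase, stood at 544, 354 and 250 CPM in SD mCherry and 572, 1820 and 1933 in HFD mCherry (1.91 ± 0.496, edgeR adjusted p = 0.0768), with 430 to 957 in the knock-in libraries. Adamts1, Adamts5 and Adamts15 had diet values of 0.76, 0.56 and 0.86, and edgeR called none of them. Adamts20, at low counts, stood at 110, 222 and 38 counts in SD mCherry against 23, 11 and 15 in HFD mCherry (-2.71 ± 0.854, edgeR adjusted p = 0.111).

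Procollagen N-propeptidases trim the ends of fibrillar collagens. Adamts2 stood at 102, 120 and 41.8 CPM in SD mCherry, 183, 631 and 757 in HFD mCherry, 121, 144 and 274 in HFD Tert, and 96.9, 254 and 184 in HFD TertCi. HFD mCherry lay above SD mCherry, and the knock-in libraries overlapped HFD mCherry through its replicate 15. The diet log2 fold change was 2.58 ± 0.610 (edgeR adjusted p = 0.0727) and the knock-in value -1.55 ± 0.480 (edgeR adjusted p = 0.119). Adamts3 and Adamts14 had diet values of 1.12 and 1.32, with libraries that overlapped.

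Of the remaining Adamts genes, Adamts12 and Adamts7, which are known to cut cartilage oligomeric matrix protein, showed the largest diet values. Adamts12 stood at 9.83, 10.2 and 1.27 CPM in SD mCherry, 18.2, 62.4 and 67.5 in HFD mCherry, 4.73, 3.31 and 19.7 in HFD Tert, and 4.49, 6.25 and 5.46 in HFD TertCi. All HFD TertCi libraries were below HFD mCherry, and HFD Tert replicate 27 was inside its range. The knock-in log2 fold change was -2.80 ± 0.673 (edgeR adjusted p = 0.0795). Adamts7 had means of 2.79 ± 1.40 CPM in SD mCherry and 15.3 ± 7.56 in HFD mCherry (SD, n = 3 each), a diet value of 2.45 ± 0.580 (edgeR adjusted p = 0.0727). Adamts6 had 54, 67 and 86 counts in HFD mCherry, 22, 31 and 40 in HFD Tert and 28, 9 and 21 in HFD TertCi (knock-in value -1.59 ± 0.676, edgeR adjusted p = 0.215). Adamts10, Adamts16, Adamts17, Adamts18 and Adamts19 had diet values between 0.02 and 1.75, and edgeR called none of them.

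HFD Tert against HFD TertCi compares active with inactive Tert. Of the 39 members, edgeR called 0 (beside 0% of all genes) and DESeq2 called 0 (beside 0.0539%). The Mmp2 difference was 0.24 ± 0.445, that of Timp1 0.06 ± 0.576, that of Mmp14 -0.01 ± 0.592 and that of Adamts9 0.01 ± 0.380, on the log2 scale. Those SEs leave room for differences of either sign. Mmp7 was the only member with an unadjusted p under 0.05 in edgeR (beside 1.36% of all genes) and the only member without overlap (beside 5.13%). Its log2 fold change was -6.21 ± 1.90 (edgeR adjusted p = 1), fitted against libraries that were nearly all at 0 counts.

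Much of the spread lay between replicates. HFD mCherry replicate 15 was the lowest of its group for 31 of the 39 members, HFD Tert replicate 27 the highest of its group for 29, HFD TertCi replicate 31 the highest for 21 and SD mCherry replicate 3 the lowest for 25. The same counts were not made over all genes, so whether this order is particular to the members is not known. Summed stromal progenitor markers (10 of 10 detected, none at 0) ran from 3506 to 4786 CPM in SD mCherry, 5365 to 14777 in HFD mCherry, 5473 to 9986 in HFD Tert and 4531 to 9694 in HFD TertCi. Replicate 15 was also the lowest of HFD mCherry in this sum, and replicates 27 and 31 the highest of their groups. Dcn and Col1a1 count in this sum and also among the matrix substrates given below. Pdgfra alone was again lowest in replicate 15 and highest in replicate 27 of their groups. In HFD TertCi it stood at 64.3, 56.7 and 63.9 CPM, so replicate 31 was the lowest there. The part of these markers in the members' values was not tested. Without HFD mCherry replicate 15, edgeR called 12 members in the diet comparison, all higher, beside 12.2% of all genes, and 8 in the knock-in comparison, all lower, beside 4.04%. With the epithelial score of each library as a covariate, edgeR called 13 for diet (beside 9.39%) and 12 for the knock-ins (beside 11.3%).

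Genes that act with the members or are cut by them were listed separately. Of 34 tested genes for activators, inhibitors and related proteases, edgeR called 0 in the diet comparison and 0 in the knock-in comparison. At an unadjusted p under 0.05, 23 were higher with diet (beside 14.1% of all genes) and 16 lower in the knock-ins (beside 13.4%), and DESeq2 called 17 higher (beside 7.92%) and 9 lower (beside 5.77%). Ctsk, which encodes the collagen-degrading cathepsin K, had a diet log2 fold change of 3.64 ± 0.687 (edgeR adjusted p = 0.0659), and Adam12, a membrane protease, 3.85 ± 0.767 (edgeR adjusted p = 0.0659). Adam17, which sheds cell surface proteins, had a knock-in value of -0.94 ± 0.196 (edgeR adjusted p = 0.0560). Of 20 matrix substrates, edgeR called 0 in each comparison, with 19 higher for diet and 16 lower for the knock-ins at an unadjusted p under 0.05, beside the same 14.1% and 13.4% of all genes. DESeq2 called 18 and 15 of them, beside 7.92% and 5.77%. Their median log2 fold changes were 2.53 and -1.52, further from 0 than the members' 1.12 and -0.54. Col4a1, a basement membrane collagen, had a diet value of 2.91 ± 0.483 (edgeR adjusted p = 0.0652), and Col1a1, the main fibrillar collagen, a knock-in value of -2.09 ± 0.416 (edgeR adjusted p = 0.0560).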

How the data were processed

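Poly-A RNA-seq was made from adipose stromal cells in 12 libraries, 3 per group, per the labels. The authors deposited raw read counts per gene symbol for each library; per the submitters' processing notes, Subread, SAMtools and featureCounts 1.6.4 with mm10 were used. Annotation and strand setting are not given in the sources used here.

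Members and lists were chosen with earlier results of these data known. Genes were kept by filterByExpr (16713), scaled by TMM (0.854 to 1.15) and fitted in 1 edgeR 4.0.16 quasi-likelihood model over 12 libraries (R 4.3.3), with Benjamini-Hochberg adjustment over all genes and calls at an adjusted p under 0.05. The SE is the absolute log2 fold change divided by the square root of F. CPM uses TMM-scaled totals. With 3 libraries a group precision was limited, and the spread of each gene was estimated over all 12 libraries. The scripts were checked on simulated data. In simulated diet comparisons with 200 changed genes, edgeR called 38.5% of them at a log2 change of 2 and 85% at 4. Genes were drawn independently there, without variation shared by the genes of a library. These rates are thus not the recovery to be expected for the members. Alternatives were DESeq2 1.42.0, limma-voom 3.58.1, other scalings, no filter, only the groups compared, an epithelial covariate and leaving out each library. Replicate libraries differed beyond sampling noise (chi-square of at least 20.6 per degree of freedom over 12 pairs). The named genes were 25 members: the main members of each role, any member called, and those with an unadjusted p under 0.05 and no overlap. The last rule kept only the members of smallest p in each comparison. Values of some other members are given as well. Gene positions and exon lengths came from GENCODE M21 and promoters from RefSeq.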

Additional observations from a re-analysis of the deposited data

How the results depend on the processing

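No paired analysis was possible because replicate numbers differ between all 4 groups. Of 58 member comparisons with an unadjusted p under 0.05, 58 kept their direction in all alternatives run. The counts of members called moved, and so did the share of all genes called, given in brackets. DESeq2 called 14 for diet (12.4%), 5 for Tert (5.07%), 4 for TertCi (4.09%), 7 for both knock-ins (9.23%) and 13 over the 4 groups (13.8%), and the epithelial covariate gave 13 (9.39%), 7 (7.34%), 5 (3.94%), 12 (11.3%) and 9 (7.42%). limma-voom gave 0 in every comparison (0.0120% for TertCi, 0.0718% for both knock-ins and 0% otherwise). For both knock-ins, library size without TMM gave 3 (0.724%) and the fit of only the groups compared 0 (0.421%). Tert against TertCi stayed at 0 in every alternative. Leaving out each library gave 0 to 12 for diet (12 without HFD mCherry replicate 15, beside 12.2% of all genes, and 9 without HFD Tert replicate 27, beside 4%), 0 to 1 for Tert and 0 to 3 for TertCi (the highest of each without HFD mCherry replicate 15, beside 0.299% and 1.16%). It gave 0 to 8 for both knock-ins (8 without HFD mCherry replicate 15, beside 4.04%, 5 without SD mCherry replicate 3 or HFD Tert replicate 27, beside 2.82% and 3.06%, and 0 without any other) and 0 to 8 over the 4 groups (8, 4 and 4 without those same libraries, beside 3.81%, 3% and 0.991%). The Mmp2 call in both knock-ins held in 8 of 19 alternatives, with log2 fold changes of -2.88 to -2.13 and adjusted p-values of 9.83e-07 (DESeq2) to 0.223 (edgeR without HFD mCherry replicate 20). Scaling by library size alone moved the diet median of all genes from -0.08 to -0.27 and that of the members from 1.12 to 0.84. The cause of these shifts was not tested. Members at a few counts, such as Mmp27, are limited by depth.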
